A study of Mus musculus with 4 samples.

Results

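The 32 genes described here encode the enzymes that break down glucose to lactate, those of the pentose phosphate pathway, and the pyruvate dehydrogenase subunits and kinases that admit pyruvate to the mitochondrion. The genes were chosen by name for their function, with no threshold on a measured value, and all 32 were found by symbol among the 18364 genes of the table. They were measured by bulk RNA-seq in LPMs (large peritoneal macrophages), which reside in the peritoneal cavity. The 4 libraries came from 8-week-old C57BL/6 mice, and 2 were labelled wild type (WT) and 2 were labelled as lacking *Rxra*, the gene for the nuclear receptor RXRα. Per the methods of the study, the knockout mice were *LysM*Cre+ *Rxra* fl/fl and the controls were *Rxra* fl/fl littermates, so both groups carried the floxed allele and Cre was driven from the *Lyz2* locus in myeloid cells. *Rxrb*, which encodes another RXR, was left intact in both. Per the same methods, RNA samples that clustered away from their condition had been removed, and none of those was analysed here. Neither the labels nor the methods used here say how many mice gave each library, so the spread between these libraries may be technical. The limma p-values rest mostly on a spread pooled over all genes, as given under the processing.

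Glycolysis starts when hexokinase traps glucose as glucose 6-phosphate, is committed at phosphofructokinase, and ends when pyruvate kinase makes pyruvate. Lactate dehydrogenase then reduces pyruvate to lactate, while pyruvate dehydrogenase turns it into acetyl-CoA for the citric acid cycle unless its kinases switch it off. The pentose phosphate pathway leaves glycolysis at glucose 6-phosphate, and makes NADPH in its oxidative branch and ribose phosphate in its non-oxidative branch. Macrophages draw on all of these routes, and inflammatory activation is known to raise glycolysis while hypoxia-inducible factor (HIF) drives many of its genes.

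The deposited values were normalised read counts, and whole reads were recovered from them. The libraries held 652542 and 947372 reads for WT, and 629030 and 1047021 for Rxra-KO, so that 1 read was worth between 0.993 and 1.51 in normalised count. *Rxra*, the targeted gene, had 20 and 28 reads in WT against 33 and 77 in the libraries labelled Rxra-KO, which goes against the label, although the table does not separate the deleted part from the rest of the transcript (log2 fold change 0.99, limma, adjusted p = 0.183). *Lyz2*, whose locus carries Cre, fell by 1.03 on the log2 scale (adjusted p = 0.00163). Markers of cell identity differed with the label as well. All 8 LPM markers were in the table and 6 were called lower in Rxra-KO, with summed levels of 35907 and 37822 in WT against 19176 and 21338. Most of each sum was *Prg4*, at 28429 and 29683 against 15129 and 16567. *Csf1r*, which was not called, was higher in both Rxra-KO libraries, at 1363 and 1061 against 1454 and 1637. All 7 markers of small peritoneal macrophages and monocytes were in the table, 6 were called higher, and their sums were 394 and 123 against 4326 and 5777. The study had already reported *Irf4*, *Ccr2*, *Mrc1*, *Retnla* and *Fcrls* as raised in these libraries, and *Gata6* and *Icam2* as lowered. Neither the LPM count nor that of the small macrophage and monocyte list is therefore independent support. The gene of the latter list that was not called was *Ly6c2*, a monocyte marker, with 5 and 0 reads in WT against 1 and 0 in Rxra-KO. Of 6 proliferation genes 3 were called lower, namely *Mki67*, *Top2a* and *Cenpf*, and the sums over all 6 were 639 and 1501 against 266 and 247. Most of each WT sum was *Mki67*, at 417 and 942 against 127 and 86.9 in Rxra-KO. *Birc5* overlapped between the groups, at 65.9 and 84.1 against 83.6 and 70.0, as did *Ccnb1* and *Cdk1*. The study had also reported lower cell-cycle genes in these libraries, so this count is no independent support either. B cell, T cell, mast cell, neutrophil and erythroid lists, with 4 of 6, 4 of 6, 5 of 6, 2 of 6 and 3 of 7 genes in the table, summed to at most 60.2 in any library, and the mesothelial list to at most 88.4, with no matched gene at 0 in all libraries. The call among these 6 lists was *Cd2* of the T cell list, with 0 and 0 reads in WT against 11 and 6 in Rxra-KO (limma, adjusted p = 0.0277). *Lck* of the same list went the other way without being called, with 7 and 11 reads in WT against 2 and 0 in Rxra-KO. *Cd3d*, with 20 and 21 against 21 and 25, and *Cd3e* overlapped between the groups. The part of all these cell types in the results on glucose metabolism was not tested. In bulk RNA fewer cells of a type cannot be told apart from less RNA per cell.

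No enzyme of the list passed the test. Genes were compared by limma on log2(normalised count + 1) over the whole table, and a gene was called at a Benjamini-Hochberg adjusted p under 0.05 with a log2 fold change of at least 0.6 in size. This called 421 genes, or 2.29% of the table, with 243 higher (1.32%) and 178 lower (0.969%) in Rxra-KO, and 0 of the 32 enzymes. The lowest adjusted p among them was 0.130, for *Pfkm*. At an unadjusted p under 0.05 there were 4 (12.5%), against 10.1% of all genes. *Bpgm* was higher, where 5.68% of all genes were, and *Pfkm*, *Pkm* and *Taldo1* were lower, where 4.42% were. With a mean of at least 10 reads it was 12.5% of the enzymes against 15.2% of all genes of that depth, of which 4.6% were called. With at least 100 reads it was 11.1% against 28.9%, and 13.7% of all such genes were called. edgeR's quasi-likelihood test and DESeq2 on the recovered reads also called 0 of them, where they called 2.43% and 1.28% of all genes, with 4 and 1 at an unadjusted p under 0.05, and DESeq2 gave no adjusted p for 8 of the enzymes.

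As a description, the fold changes leaned to the lower side. Values were lower in Rxra-KO for 21 enzymes and higher for 11, which is 65.6% lower against 48.9% of all genes. The median log2 fold change of the enzymes was -0.26, where that of all genes was 0.02. Both Rxra-KO libraries lay below both WT libraries for 12 enzymes (37.5%, against 19.3% of all genes) and above both for 4 (12.5%, against 18.8%), while the groups overlapped for 16. Among the 9 enzymes with a mean of at least 100 reads the median was -0.27, where it was 0.05 for all genes of that depth. A mean of under 10 reads per library was found for 8, namely *Aldoc*, *Eno1*, *Bpgm*, *Pgls*, *Rpia*, *Rpe*, *Pdk2* and *Pdk3*. For 15 of the 32, the 95% interval of the log2 fold change lay within 1 unit on either side of 0, and for the other 17 a change of that size was not excluded at this depth.

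The lean was smaller without the library labelled Rxra-KO 1. The enzymes took 0.543% of all reads in WT 1 (95% Wilson interval 0.526 to 0.562), 0.559% in WT 2 (0.544 to 0.574), 0.426% in Rxra-KO 1 (0.410 to 0.443) and 0.544% in Rxra-KO 2 (0.530 to 0.558). These intervals cover counting error only, since the kit adds no molecular identifiers and reads can be copies of one molecule. Rxra-KO 1 stood below both WT libraries and Rxra-KO 2, and Rxra-KO 2 was level with WT. These sums lean on 1 gene. *Ldha* alone held 38.0% and 36.6% of them in WT 1 and 2, 33.5% in Rxra-KO 1 and 38.9% in Rxra-KO 2. Rxra-KO 1 was the lowest library for 18 of the 32 enzymes, whereas 26.2% of all genes were lowest there. Without it the median log2 fold change was -0.09, and without Rxra-KO 2 it was -0.43.

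**Figure D1:**
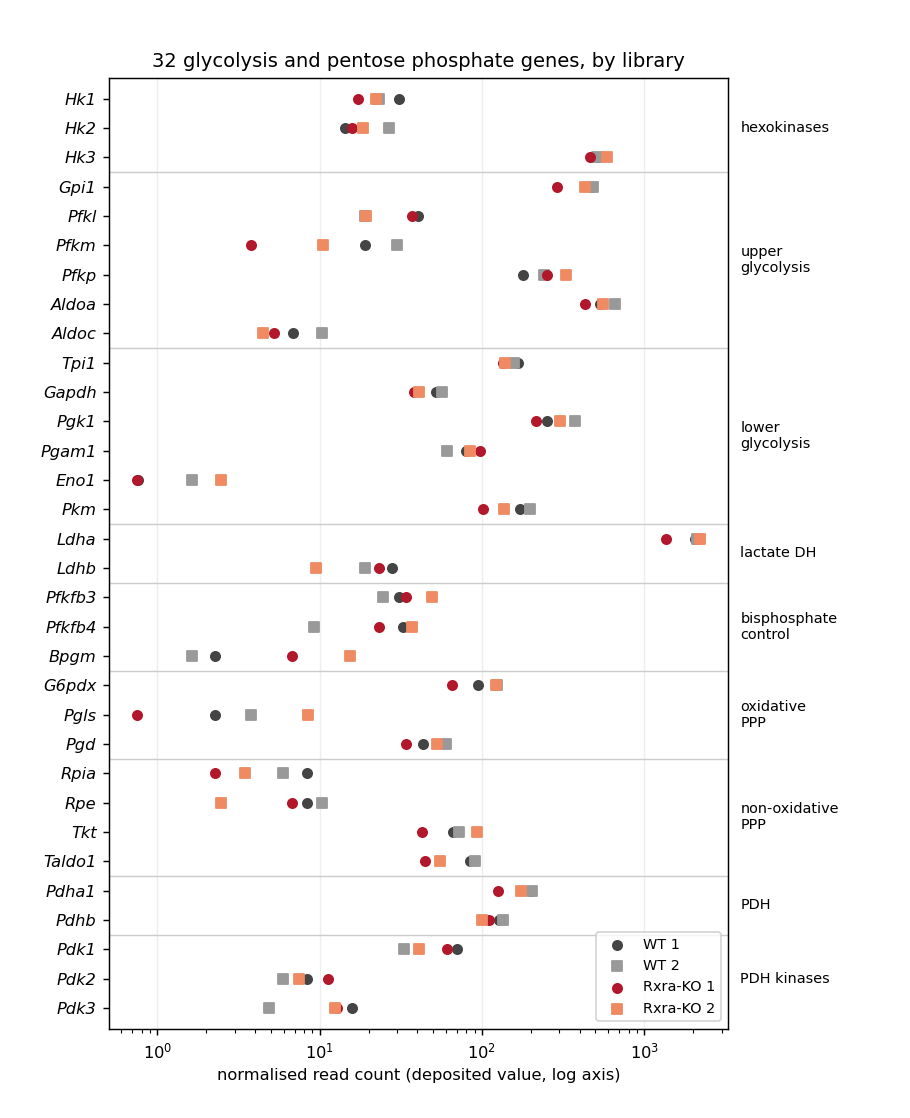
Normalised read count of each of the 32 genes (log axis) in the 4 libraries, with dark and light grey for WT 1 and 2 and red and orange for Rxra-KO 1 and 2, grouped by step of the pathway (PPP, pentose phosphate pathway; PDH, pyruvate dehydrogenase; DH, dehydrogenase). *Ldha* is the highest of all at 1351 to 2200.4, *Eno1* lies at or near 1, and the red points of Rxra-KO 1 are the leftmost for 18 genes.

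**Figure D2:**
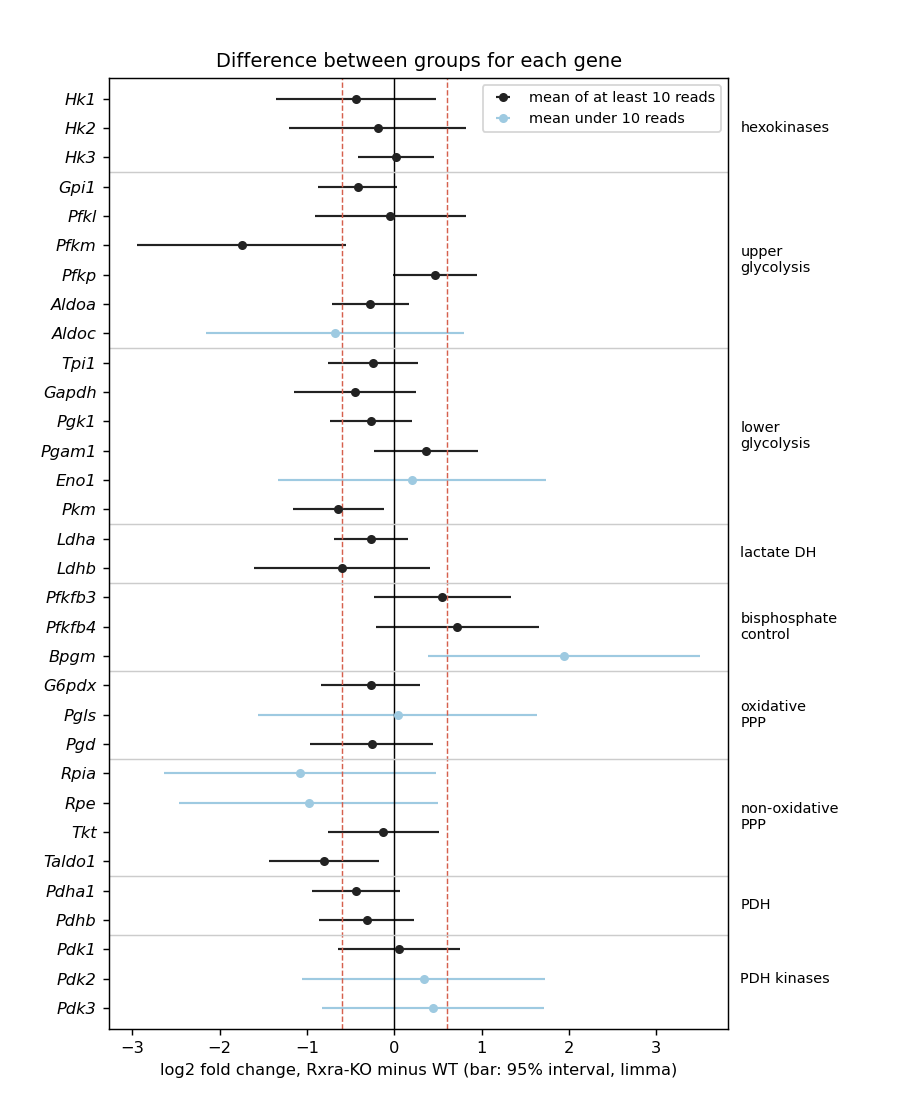
Log2 fold change of each gene, Rxra-KO minus WT, with its 95% interval from limma, where dashed lines mark 0.6 on either side of 0 and pale points are genes with a mean under 10 reads. The intervals of *Pfkm*, *Pkm*, *Taldo1* and *Bpgm* leave out 0 before adjustment, and no gene passed after it.

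Of the hexokinases, *Hk3* supplied over 91% of the reads in each library, and its groups overlapped. *Hk3*, an isozyme typical of myeloid cells, had normalised counts of 522 and 513 in WT against 466 and 589 in Rxra-KO. The Rxra-KO values lay on either side of WT, and the log2 fold change was 0.02 (95% interval -0.42 to 0.46). *Hk3* made up 92.2% and 91.3% of hexokinase reads in WT against 93.6% and 93.7% in Rxra-KO. *Hk1*, the isozyme of most tissues, was at 31.04 and 23.3 in WT against 17.3 and 22.3 in Rxra-KO. *Hk2*, which is induced by insulin and hypoxia in other tissues, overlapped between the groups, with 14.4 and 26.6 against 15.8 and 18.4. Per kilobase of transcript, *Hk3* stood at 161 ± 1.98 in WT (mean ± SD, n = 2), and *Hk1* at 7.06 ± 1.42.

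*Gpi1* turns glucose 6-phosphate into fructose 6-phosphate. Its normalised counts were 467 and 482 in WT against 290 and 433 in Rxra-KO, so that the groups did not overlap, but the difference did not pass (log2 fold change -0.42 ± 0.23 SE, adjusted p = 0.546). *Aldoa*, the aldolase that splits fructose 1,6-bisphosphate, was at 531 and 659 in WT against 428 and 559 in Rxra-KO. It carried between 98.5% and 99.3% of aldolase reads in every library, and *Aldoc* had 3 to 9 reads per library.

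Phosphofructokinase, the committed step of glycolysis, has a liver (*Pfkl*), a muscle (*Pfkm*) and a platelet (*Pfkp*) isozyme, and the fold changes of its isozymes pointed in different directions. *Pfkm* had 12 and 27 reads in WT against 2 and 10 in Rxra-KO, or normalised counts of 18.9 and 29.8 against 3.76 and 10.4. Both Rxra-KO libraries were below both WT libraries, and the log2 fold change was -1.75 ± 0.61 SE (95% interval -2.94 to -0.56, limma, adjusted p = 0.130). *Pfkp* pointed the other way, with 178 and 243 in WT against 252 and 328 in Rxra-KO. Its groups did not overlap either, and its log2 fold change of 0.47 ± 0.24 SE did not pass (adjusted p = 0.507). *Pfkl* spread as widely within a group as between them, with 40.1 and 19.0 in WT against 36.9 and 19.4 in Rxra-KO. *Pfkm* kept its negative sign when any 1 library was left out, with log2 fold changes from -2.38 to -1.12 and adjusted p from 0.0689 to 0.821.

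Shares within a library do not depend on how libraries were scaled. *Pfkm* supplied 7.74% of phosphofructokinase reads in WT 1 (95% Wilson interval 4.48 to 13.04) and 10.1% in WT 2 (7.04 to 14.3). In Rxra-KO it supplied 1.04% (0.285 to 3.70) and 2.79% (1.52 to 5.05). The 4 shares did not overlap between groups, at 8.93% ± 1.68 against 1.91% ± 1.24 (SD, n = 2), but the interval of Rxra-KO 2 reached into that of WT 1. The share of *Pfkp* was 75.5% and 83.5% in WT against 86.5% and 91.9% in Rxra-KO, while *Pfkl* held 16.8% and 6.37% against 12.4% and 5.29%. With 2 libraries a group an exact permutation test cannot go below p = 0.333, so the shares are given as a description.

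**Figure D3:**
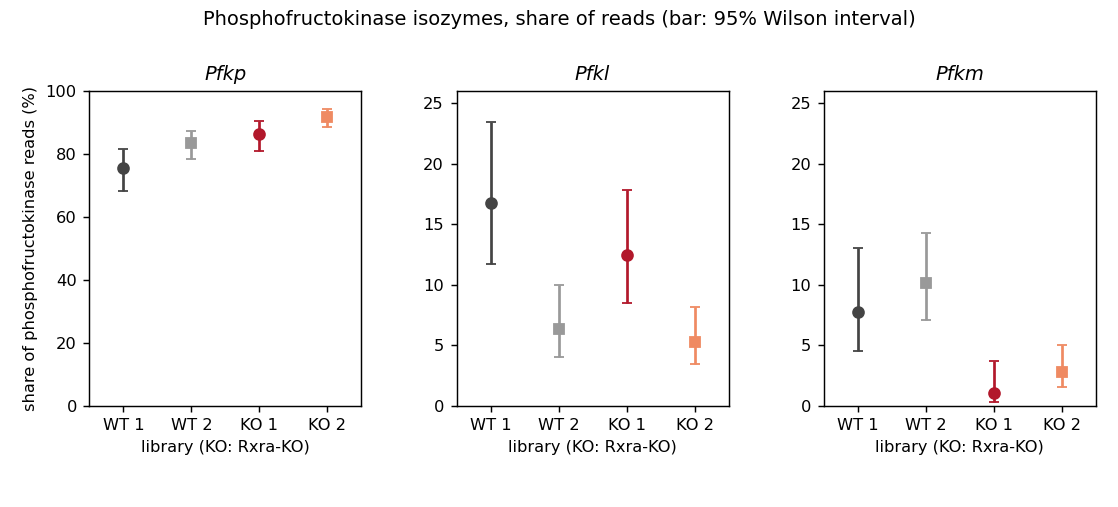
Share of phosphofructokinase reads taken by *Pfkp*, *Pfkl* and *Pfkm* in each library, with 95% Wilson intervals that cover counting error only. The axis runs from 0 to 100% for *Pfkp* and from 0 to 26% for the others, and *Pfkm* stands at 7.74% and 10.1% in WT against 1.04% and 2.79% in Rxra-KO.

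The promoters of both genes are shown because their levels pointed in opposite directions. The windows are from RefSeq on GRCm38.p6, each 300 bases from 250 before to 50 after a transcription start. They were searched on both strands for ACGTG, 1 form of the core that HIF binds. Other forms of that core, such as GCGTG, were not searched. Also sought were the E-box CACGTG, which contains ACGTG, and AGGTCA, the hexamer that nuclear receptors bind. The last was a direct repeat of AGGTCA with 1 base between the copies, which RXR dimers are known to bind. Capitals mark ACGTG or its complement CACGT. *Pfkm* has 4 windows and the one with the most matches is printed, at chr15:98092339-98092638 on the plus strand. *Pfkp* has 1 window, at chr13:6648722-6649021 on the minus strand.

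Pfkm: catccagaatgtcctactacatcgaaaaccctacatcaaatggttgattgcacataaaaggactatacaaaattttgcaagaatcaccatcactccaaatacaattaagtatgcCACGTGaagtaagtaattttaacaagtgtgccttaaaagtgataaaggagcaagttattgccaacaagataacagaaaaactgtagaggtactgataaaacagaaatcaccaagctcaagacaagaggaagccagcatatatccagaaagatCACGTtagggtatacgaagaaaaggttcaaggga

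Pfkp: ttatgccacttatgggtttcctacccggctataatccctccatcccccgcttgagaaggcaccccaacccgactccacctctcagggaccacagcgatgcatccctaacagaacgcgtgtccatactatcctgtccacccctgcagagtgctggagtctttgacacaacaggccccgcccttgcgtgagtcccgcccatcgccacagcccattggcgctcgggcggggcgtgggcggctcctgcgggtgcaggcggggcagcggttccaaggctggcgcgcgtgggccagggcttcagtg

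This *Pfkm* window holds an E-box and a further CACGT. The *Pfkp* window holds no ACGTG or CACGT, but it does hold GCGTG, which was not counted. Over the whole list, 16 of 32 enzymes (50%) had ACGTG in at least 1 window, against 21.8% of 27025 genes with a window. By window it was 40.4% of the 47 of the enzymes and 19.6% of all 32851. The E-box was in 4 enzymes, namely *Ldha*, *Pdk2*, *Pfkfb3* and *Pfkm* (12.5%, against 8.09% of genes). AGGTCA was in 6 (18.8%, against 18.1%), and the direct repeat was in 0, against 0.0481% of genes. At so low a rate no match was to be expected among 32 enzymes, and inexact copies or other spacings were not searched. A match is a run of letters and not a binding site, and binding was not measured in these libraries.

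In lower glycolysis 4 of the 6 fold changes were negative and no gene passed the test. *Tpi1*, which interconverts the triose phosphates, had 167 and 158 in WT against 135 and 139.5 in Rxra-KO, a difference of -0.24 ± 0.26 SE on the log2 scale. *Gapdh*, which makes 1,3-bisphosphoglycerate and is widely used as a reference gene, had 52.2 and 56.95 against 38.4 and 41.2. Neither gene overlapped between the groups. *Pgk1*, the first step to yield ATP, overlapped, with 251 and 375 against 216 and 300.4. *Pgam1*, the mutase that follows, was one of 4 enzymes with both Rxra-KO libraries above WT, at 79.5 and 61.3 against 97.1 and 83.9 (log2 fold change 0.37, adjusted p = 0.794).

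*Pkm*, the pyruvate kinase of macrophages, had 112 and 183 reads in WT against 67 and 137 in Rxra-KO. The normalised counts were 170 and 199 against 102 and 137, a log2 fold change of -0.64 ± 0.26 SE that did not pass after adjustment (limma, adjusted p = 0.286). Rxra-KO 2, at 137, lay closer to WT than Rxra-KO 1 did, and leaving out any 1 library gave log2 fold changes from -0.85 to -0.43. The table holds 1 value per gene, so the M1 and M2 splice forms of *Pkm* were not analysed here.

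*Eno1* and *Gapdh* were low for housekeeping enzymes. *Eno1*, the enolase of most tissues, had 0 and 1 reads in WT against 0 and 2 in Rxra-KO, at or under the floor of 3 reads in every library, so no fold is given. A script counted how many of the 31-base words of each gene's longest principal coding transcript (GENCODE M21) also occur in transcripts of other genes, since reads there can be assigned to either. The share was 77.2% for *Eno1* and 84.1% for *Gapdh*, with 2 and 24 other genes respectively holding most of the words, of which 1 each was in the table. *Eno1b*, the one for *Eno1*, had 6 and 0 reads in WT against 3 and 6 in Rxra-KO. The share was 68.3% for *Pgk1*, 50.9% for *Pkm*, 42.1% for *Pgam1*, 41.9% for *Pdhb* and 41.4% for *Ldhb*. For *Ldha* it was 35.1%, for *Aldoa* 35%, for *Gpi1* 32.1%, for *Taldo1* 25.2%, for *Tpi1* 18.2% and for *G6pdx* 14.8%. It was 0 for *Pfkm*, *Hk1*, *Hk3*, *Bpgm* and *Tkt*. Levels and differences of the genes with a large share are therefore uncertain, and its part in them was not tested.

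**Figure D4:**
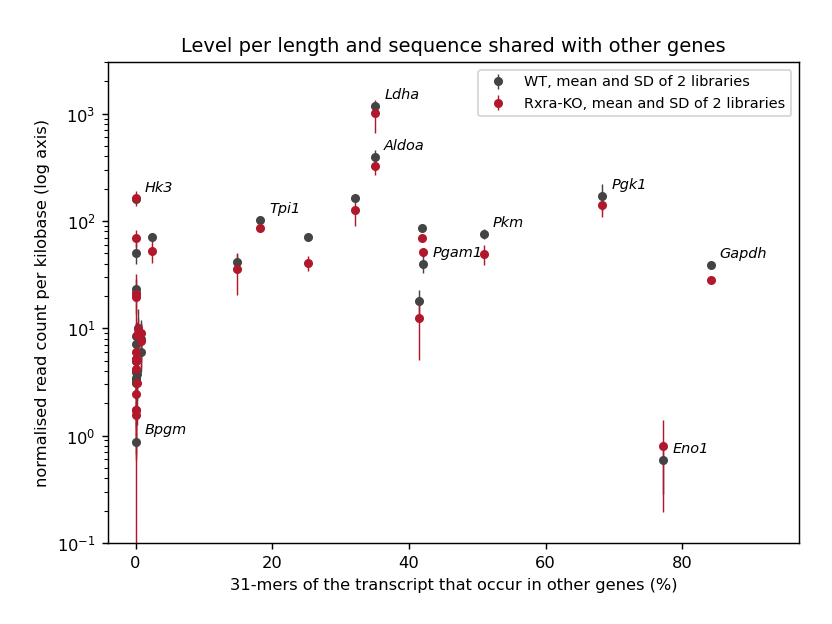
Normalised read count per kilobase of transcript (log axis, mean and SD of 2 libraries, grey for WT and red for Rxra-KO) against the percentage of each transcript's 31-base words found in other genes. *Ldha* is highest at 1173 in WT, and *Eno1*, with 77.2% of its words shared, is lowest at 0.588; an error bar that would pass 0 is drawn to the bottom of the axis.

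*Ldha*, which turns pyruvate into lactate, was the most abundant enzyme of the list per length. It reached 1173 ± 24.1 normalised counts per kilobase in WT (SD, n = 2), followed by *Aldoa* at 394 ± 60.1, *Pgk1* at 171 ± 48.1, *Gpi1* at 165 ± 3.71, *Hk3* at 161 ± 1.98 and *Tpi1* at 101 ± 4.16. *Pgk1*, *Gpi1* and *Hk3* did not differ beyond their spread, and the other enzymes lay between 86.6 for *Pdhb* and 0.588 for *Eno1*. *Ldha* alone held between 33.5% and 38.9% of the reads of all 32 enzymes in a library. Its normalised counts were 2042 and 2102 in WT against 1351 and 2200.4 in Rxra-KO, so WT fell between the Rxra-KO libraries. The log2 fold change was -0.26 (95% interval -0.69 to 0.16), which as a ratio of Rxra-KO to WT runs from 0.619 to 1.12. *Ldhb*, the heart isozyme that favours the reverse reaction, had 9 to 18 reads per library and gave between 0.405% and 1.64% of lactate dehydrogenase reads.

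The *Ldha* promoter is shown since it held the most ACGTG cores among the windows printed. It lies at chr7:46845554-46845853 on the plus strand of GRCm38.p6 (RefSeq), and is the richer of 2 windows, with capitals as above.

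Ldha: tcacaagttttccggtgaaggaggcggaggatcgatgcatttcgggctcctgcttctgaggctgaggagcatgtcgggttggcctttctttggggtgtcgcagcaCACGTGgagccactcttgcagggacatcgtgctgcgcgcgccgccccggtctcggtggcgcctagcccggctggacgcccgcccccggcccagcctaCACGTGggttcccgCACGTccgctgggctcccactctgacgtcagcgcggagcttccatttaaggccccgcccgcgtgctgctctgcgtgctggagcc

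The capitals cover 2 E-boxes and a separate CACGT, which begin between 145 and 34 bases before the start of transcription. The level of *Ldha* beside this promoter overlapped between the groups.

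The enzymes that set fructose 2,6-bisphosphate and 2,3-bisphosphoglycerate had 3 positive fold changes of 3, as did the pyruvate dehydrogenase kinases, and none passed the test. Of all genes 48.9% were negative. Several of these signs did not hold: without WT 2, *Pfkfb4* (-0.14), *Pdk1* (-0.48) and *Pdk3* (-0.31) were negative. *Pdk1*, at 0.05, was also negative with edgeR and DESeq2. *Pfkfb3*, which makes the activator of phosphofructokinase, had 31.04 and 24.4 in WT against 33.9 and 49.2 in Rxra-KO (log2 fold change 0.55 ± 0.40 SE, adjusted p = 0.734). *Pfkfb4*, a related enzyme with both kinase and phosphatase activity, had 32.5 and 9.22 against 23.3 and 37.2, with wide spread in WT. *Bpgm*, known for making 2,3-bisphosphoglycerate in red cells, had 1 and 1 reads in WT against 4 and 15 in Rxra-KO. Summed over each group, the 2 against 19 reads gave a ratio of Rxra-KO to WT of 9.07 per read sequenced, with an exact interval of 2.19 to 80.3 that covers counting error only. The limma difference did not pass (adjusted p = 0.275), and the fitted log2 fold change of 1.95 was 1.16 with a pseudocount of 5, 2.35 with one of 0.1 and 3.02 with DESeq2. Erythroid markers, given beside it since *Bpgm* is a red-cell gene, had 8 and 6 reads in WT against 5 and 17 in Rxra-KO, summed over the 3 of 7 in the table.

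No gene of the pentose phosphate pathway was called, and the lowest p was in the non-oxidative branch. *Taldo1*, the transaldolase that passes carbon back to glycolysis, had 55 and 83 reads in WT against 29 and 55 in Rxra-KO. Its normalised counts were 84.0 and 90.6 against 44.4 and 55.1, tight within each group and not overlapping, with a log2 fold change of -0.81 ± 0.32 SE (limma, adjusted p = 0.254). Leaving out any 1 library gave -0.96 to -0.65. *Tkt*, the transketolase that works beside it, overlapped, with 65.9 and 72.1 against 42.9 and 92.9. *Rpia* and *Rpe*, which interconvert the pentose phosphates, had 1 to 5 and 2 to 9 reads per library and were lower in both Rxra-KO libraries. For *Rpia*, 10 reads in WT against 4 gave a ratio of 0.382 per read sequenced (exact interval 0.0874 to 1.32).

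In the oxidative branch all groups overlapped. *G6pdx*, the entry enzyme, had 94.6 and 124 in WT against 65.5 and 123 in Rxra-KO. *Pgd*, the second enzyme to make NADPH, had 43.2 and 60.2 against 33.9 and 53.1. For both genes the upper Rxra-KO value was inside the range of WT. *Pgls*, the lactonase between them, had 0 to 8 reads per library, and 4 reads in WT against 8 gave a ratio of 1.91 with an exact interval of 0.511 to 8.66.

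Both subunits of pyruvate dehydrogenase E1 were lower in both Rxra-KO libraries. *Pdha1*, the alpha subunit, had 199 and 202 in WT against 126 and 174 in Rxra-KO, and *Pdhb*, the beta subunit, had 128 and 134 against 111 and 99.8. The log2 fold changes of -0.44 ± 0.26 SE and -0.31 ± 0.28 SE did not pass (adjusted p = 0.607 and 0.815). The kinases that inactivate the complex overlapped between groups in all cases. *Pdk1*, a HIF target in other cells, had 70.4 and 33.1 against 61.0 and 41.2 and supplied 68.3% to 76.9% of the kinase reads. *Pdk2* and *Pdk3* had 5 to 7 and 4 to 12 reads per library.

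Other genes of glucose metabolism were read from 9 lists of 98 genes, of which 96 were in the table. Of these, 3 were called, or 3.12% against 2.29% of all genes, with 1 higher and 2 lower in Rxra-KO, and the median log2 fold change was -0.01. None of the 3 was an enzyme of glycolysis itself. One encodes a transcription factor, one a glycogen enzyme and one a transporter.

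*Mlxipl* encodes ChREBP, a glucose-sensing factor that pairs with Mlx on E-box-like elements and is known to drive glycolytic and lipogenic genes in liver. It had 73 and 225 reads in WT against 21 and 82 in Rxra-KO. The normalised counts of 111 and 245 against 32.4 and 81.9 did not overlap, and *Mlxipl* fell by 1.66 on the log2 scale (SE 0.30, limma, adjusted p = 1.77e-05). The libraries of a group were far apart, however, and the call was lost without WT 2 (-1.09, adjusted p = 0.202) and without Rxra-KO 1 (-1.002, adjusted p = 0.144), as it was with DESeq2 (adjusted p = 0.602) and with limma without a trend (adjusted p = 0.550). Its partner *Mlx* had 20.4 and 36.3 in WT against 18.8 and 7.45 in Rxra-KO (log2 fold change -1.13, adjusted p = 0.393). *Mlxip*, the related glucose sensor, overlapped at 31.04 and 48.3 against 79.05 and 33.3. The liver pyruvate kinase *Pklr*, a classical target, had 3 and 2 reads in WT against 2 and 2 in Rxra-KO. It was at the floor in both groups, so that it was not called tells nothing about its response. *Hif1a* overlapped, at 81.0 and 38.5 against 48.9 and 48.2. *Mlx*, *Mlxip*, *Pklr* and *Hif1a* were named after their values were seen.

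The *Mlxipl* promoter window with the most cores, 1 of 2, is shown beside this call. It lies at chr5:135089640-135089939 on the plus strand of GRCm38.p6 (RefSeq), and its capitals are a single E-box that begins 98 bases before the start.

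Mlxipl: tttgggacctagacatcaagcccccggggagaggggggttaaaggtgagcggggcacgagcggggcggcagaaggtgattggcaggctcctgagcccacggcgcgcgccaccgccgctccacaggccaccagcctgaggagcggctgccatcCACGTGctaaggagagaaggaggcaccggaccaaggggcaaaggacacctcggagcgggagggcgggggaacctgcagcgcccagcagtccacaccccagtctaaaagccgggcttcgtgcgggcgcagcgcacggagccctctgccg

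Glycogen genes held the second call. *Pygl*, the glycogen phosphorylase of liver and immune cells that frees glucose 1-phosphate, had 543 and 740.4 in WT against 294 and 358 in Rxra-KO. It fell by 0.96 on the log2 scale (SE 0.23, limma, adjusted p = 0.00228) and was lower in both Rxra-KO libraries. The call was lost without WT 2 (adjusted p = 0.362), without Rxra-KO 1 (adjusted p = 0.0787) and with limma without a trend (adjusted p = 0.604). Of all genes with a mean of at least 100 reads, as *Pygl* had, 13.7% were called in either direction. Of the 10 glycogen genes 1 was called lower (0.969% of all genes were), and 5 had both Rxra-KO libraries below WT, as 19.3% of all genes did. Among those not called, and named after their values were seen, *Gbe1*, the branching enzyme, had 38.6 and 35.3 against 14.3 and 16.4 (log2 fold change -1.22, adjusted p = 0.201). *Gyg*, the glycogenin that primes the chain, had 74.9 and 80.8 against 42.9 and 50.2 (-0.73, adjusted p = 0.363). *Pgm1* had 0 and 0 reads in WT against 6 and 6 in Rxra-KO (adjusted p = 0.0935).

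Among 12 transporters 1 was called (8.33%), where 2.29% of all genes and 4.6% of those with a mean of at least 10 reads were. The called gene was *Slc37a2*, a sugar phosphate exchanger of the endoplasmic reticulum found in macrophages. It had 8 and 22 reads in WT against 41 and 53 in Rxra-KO, or 12.9 and 24.4 against 62.5 and 53.1. *Slc37a2* rose by 1.64 ± 0.41 SE on the log2 scale (limma, adjusted p = 0.00541). The call was lost without WT 1 (adjusted p = 0.169), without Rxra-KO 1 (adjusted p = 0.255), without Rxra-KO 2 (adjusted p = 0.0737), with DESeq2 (adjusted p = 0.196) and with limma without a trend (adjusted p = 0.513). The glucose transporter *Slc2a1*, named after its values were seen, had 1 to 9 reads per library. The other 10 transporters were not called.

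**Figure D5:**
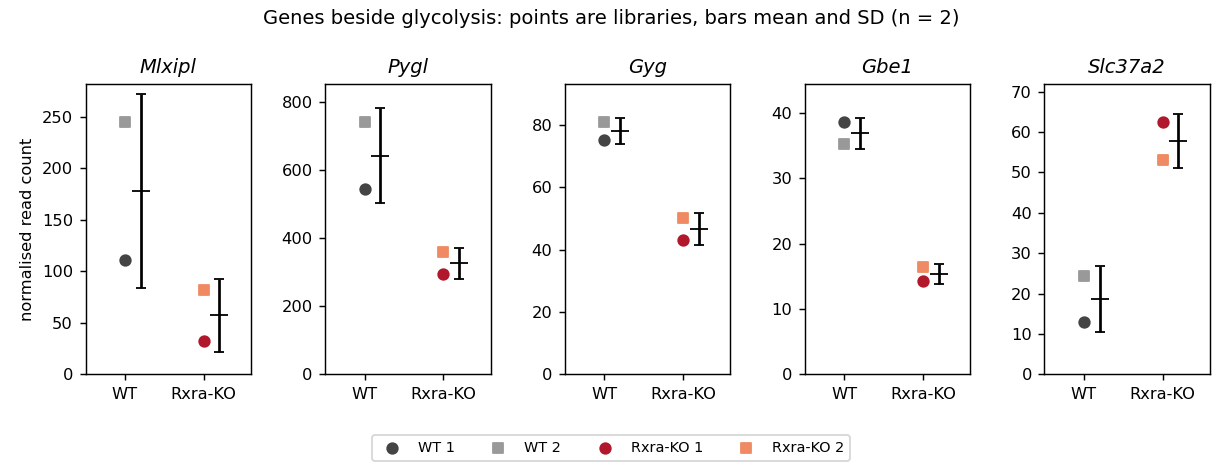
Normalised read count of *Mlxipl*, *Pygl*, *Gyg*, *Gbe1* and *Slc37a2* in each library, with the mean and SD of 2 libraries beside the points and an axis from 0 in each panel. In every panel both Rxra-KO libraries are on one side of both WT libraries, and *Mlxipl*, *Pygl* and *Slc37a2* were called while *Gyg* and *Gbe1* were not.

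The remaining lists held no call. In each the gene with the largest fold change is named. *Dlst*, a subunit of the oxoglutarate dehydrogenase complex, was at 101 and 91.7 in WT against 168 and 168 in Rxra-KO (log2 fold change 0.80 ± 0.27 SE, limma, adjusted p = 0.111), and was 1 of 13 citric acid cycle genes, whose median was -0.09. *P4ha2*, a collagen prolyl hydroxylase that HIF induces, was at 68.9 and 78.7 against 50.4 and 22.3 (-1.11, adjusted p = 0.0724), and the median of 11 HIF targets outside glycolysis was 0.00189. *Tigar*, which lowers fructose 2,6-bisphosphate, was at 23.5 and 19.0 against 9.79 and 8.44 (-1.13, adjusted p = 0.495). *Tktl2*, a transketolase-like gene, had 10 and 11 reads against 3 and 2, and *G6pc*, a glucose 6-phosphatase, had 0 and 1 against 4 and 7. *Pdp1*, the phosphatase that reactivates pyruvate dehydrogenase, had 4 and 6 reads against 11 and 13.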

How the data were processed

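Bulk RNA-seq was available for 2 WT and 2 Rxra-KO libraries of sorted LPMs (F4/80+ MHCII- CD102+ per the methods). The authors prepared them with a SMART-Seq v4 kit, quantified them with kallisto 0.43.0 and scaled them by TMM. The submitters' processing notes name GRCh38, a human build, for these mouse libraries, and what was aligned was not checked here. The authors deposited a normalised read signal per gene and library, equal to (reads + 0.5) over the scaled library size, and 100% of values gave whole reads (within 5.19e-05). With 629030 to 1047021 reads per library, a gene with 3 reads or fewer was held to be at the floor. The 32 enzymes and the lists of other genes were chosen with earlier results of these data known.

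The main test was limma 3.58.1 in R 4.3.3 on log2(signal + 1), with a mean-variance trend, no block, all 4 libraries and Benjamini-Hochberg adjustment over 18364 genes, two-sided. Prior degrees of freedom were 227 against 2 residual ones, so the test leaned on the spread of all genes. On simulated data with 18364 genes the recovery of known changes was checked. These changes were larger in size than those of all enzymes but *Pfkm* and *Bpgm*. They were put only into genes with a mean of at least 10 reads. The check therefore does not cover smaller changes or genes of fewer reads. edgeR 4.0.16 and DESeq2 1.42.0 on the recovered reads were alternatives, with other pseudocounts, scalings, filters and left-out libraries. Every enzyme was named, and of the other lists those called or, where none was, the gene of largest fold change. *Tigar* and *Adgre1* were matched by an older symbol, and *Pgam2* and *Ddit4* were not matched. Isozyme shares were reads over family reads with Wilson intervals. Levels per kilobase used GENCODE M21 transcripts, and promoters came from RefSeq on GRCm38.p6.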

Additional observations from a re-analysis of the deposited data

How the results depend on the processing

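With 2 libraries per group, 0 of 32 enzymes were called in limma and 0 of those tested under the alternatives run, including no fold threshold; 25 were left by a filter that asked for normalised counts of 10 or more in 2 libraries, and DESeq2 gave no adjusted p for 8. The count over all genes was 421 in limma, 235 with DESeq2, 0 with limma without a trend (1579 at an unadjusted p under 0.05), and 236 to 377 when 1 library was left out. The 3 calls among the other genes of glucose metabolism became 1 with DESeq2, 0 without a trend, 6 with the replicate block, and 1 to 2 with a library left out. The median log2 fold change of the enzymes ran from -0.43 to -0.085 with a library left out. The 2 alternatives chosen after seeing the data gave -0.27 over enzymes with at least 10 reads and -0.25 over those with most of their 31-base words in no other gene. The titles number the libraries 1 and 2 in each group, but the deviations of same-numbered libraries correlated at 0.0635 over 8850 genes, so the numbers were not taken as pairs; the block moved the count over all genes to 540 and called 0 enzymes.

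Of 473 log2 fold changes of enzymes under 15 of these alternatives, 24 turned direction, in 14 enzymes, and 18 enzymes kept theirs; the cause was not tested. Without leaving out a library these were *Hk3* with relative log expression scaling (-0.0026), *Pdk1* with DESeq2 (-0.033) and edgeR (-0.0057), *Pgls* with a pseudocount of 0.1 (-0.17) and voom (-0.039), and *Tkt* with edgeR (0.0086). With 1 library left out the values ran as follows: *Eno1* (-0.29 to 0.70), *G6pdx* (-0.72 to 0.18), *Hk2* (-0.61 to 0.23), *Hk3* (-0.15 to 0.19), *Ldha* (-0.62 to 0.087), *Ldhb* (-1.21 to 0.015), *Pdk1* (-0.48 to 0.59), *Pdk3* (-0.31 to 1.21), *Pfkfb4* (-0.14 to 1.58), *Pfkl* (-0.57 to 0.48), *Pgd* (-0.58 to 0.058), *Pgk1* (-0.56 to 0.024), *Pgls* (-1.18 to 1.25) and *Tkt* (-0.67 to 0.42).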
